A study of Mus musculus with 20 samples.

Results

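The 10 genes described here carry out MHC class I antigen presentation. They are the class I heavy chains H2-K1 and H2-D1, the light chain B2m, the peptide transporter subunits Tap1 and Tap2, the loading factor Tapbp, the transcriptional activator Nlrc5 and the immunoproteasome subunits Psmb8, Psmb9 and Psmb10. They were chosen by gene name from a table of 25308 genes. All 10 names were found, each in 1 entry, and all 10 were among the 14477 genes that passed the filter on low counts.

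Expression was measured by RNA sequencing of the heart apex in 20 mice. The 9 AL mice and the 4 LS mice were λS-DH mice (genotype DH-lambdaS), in which a human λ light chain cDNA behind a mouse VH promoter replaces the Jκ segments of the Ig kappa locus, so that plasma cells, and not the heart, make the human protein. AL mice had received intravenous r λS-VL, as sonicated fibril seeds or as soluble protein, and had amyloid deposits, whereas LS mice were not induced and had none. The 7 Ctrl mice were age-matched DH-LMP2A mice (genotype DH) without the human gene. The DH-LMP2A background, common to all 3 groups, yields plasma cells that lack Ig heavy chains. The study used adults of both sexes, and ages of the single mice were not used here. Since LS mice were not injected, amyloid and injection cannot be told apart between AL and LS, and whether the Ctrl mice had been injected is not given in the sources used here, which leaves the same limit on AL against Ctrl. Sequencing was done in 2 runs, the first with 7 AL, 4 LS and 4 Ctrl mice and the second with 2 AL and 3 Ctrl mice, so LS mice were measured in run 1 alone.

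Class I molecules display peptides from proteins made inside a cell to CD8 T cells and natural killer cells. The proteasome cuts proteins into peptides, the Tap1-Tap2 transporter moves them into the endoplasmic reticulum, and tapasin (Tapbp) holds the empty heavy chain and B2m beside the transporter until a peptide binds. Interferons induce these genes together in most tissues: they replace the constitutive catalytic proteasome subunits Psmb6, Psmb7 and Psmb5 by Psmb9, Psmb10 and Psmb8, and Nlrc5 binds the class I promoters with RFX factors. Resting heart muscle cells are known for low class I levels, while the endothelial and immune cells of the heart carry more.

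Total counts lay between 43993277 and 62668146 per mouse in run 1 and between 7867642 and 11794615 in run 2. Levels are given as CPM, counts relative to library size as scaled by TMM, and a gene is termed called at a false discovery rate (FDR) under 0.05 with an absolute log2 fold change (log2FC) of at least 0.58. Cardiomyocyte markers (6 genes, among them Myh6 and Tnnt2) summed to 39728 to 67675 CPM in the 20 mice. Albumin (Alb), a liver transcript, was at 93.4 to 215 CPM in 5 mice (LS1, LS3, Ctrl1, Ctrl3 and Ctrl4) and at no more than 21.7 CPM in the other mice, and all 8 liver markers were called lower in AL than in Ctrl mice, and 7 of 8 lower than in LS mice. Calls on the 10 genes are therefore also given without these 5 mice.

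Of the 10 genes, 7 lie on mouse chromosome 17 (GRCm38). Psmb9, Tap1, Psmb8 and Tap2 form a cluster there that spans 34.3 kb, from Psmb9 at chr17:34181987-34187764 (minus strand) through Tap1 (chr17:34187553-34197225) and Psmb8 (chr17:34197721-34201454) to Tap2 (chr17:34203527-34216321). Psmb9 and Tap1 overlap by 212 bases on opposite strands, and 495 bases separate Tap1 from Psmb8. H2-K1 (chr17:33996017-34000347, minus strand), Tapbp (chr17:33915899-33929292) and H2-D1 (chr17:35262730-35267499) flank this cluster. Nlrc5 (chr8:94434356-94527272) and Psmb10 (chr8:105935735-105938444, minus strand) lie on chromosome 8, and B2m (chr2:122147686-122153083) lies on chromosome 2. The 2 heavy chains are close copies of each other and of other class I genes: 22.8% of the 31-base words in H2-K1 transcripts and 26.7% of those in H2-D1 transcripts also occurred in transcripts of other genes, 11.1% and 13.8% in each other's. Reads over these stretches could be divided between the genes in the authors' quantification, so levels of H2-K1 and H2-D1 carry that uncertainty. For the other members the share was 4.62% or less.

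RefSeq promoter windows (GRCm38.p6, 250 bases before to 50 bases after the start site) were found for 8 of the 10 members, with none for Tap2 and Nlrc5. They were searched on both strands for an interferon regulatory factor motif (AANNGAAA), a κB motif, the site of NF-κB, and TGACG followed at 15 to 25 bases by ATTGG, the order of the X2 and Y boxes through which RFX, CREB and NF-Y factors hold Nlrc5. The windows of H2-K1, H2-D1 and B2m, the 3 chains of the class I molecule itself, held all of these, and the windows of the other 5 members held none of the 3. The start sites used lay 3579 bases from the annotated gene start for Tapbp, 474 for Psmb8, 434 for Psmb9 and 364 for H2-D1. A window without a match therefore does not show that a gene lacks these elements. Over all 27025 promoters, 24.2% held the interferon motif, 4.13% the κB motif and 0.463% the box pair. In all 3 chains exactly 20 bases separated TGACG from ATTGG. The 3 windows are shown because they hold all 3 elements, and capitals mark the interferon motif (TTTCACTT, its reverse strand, or AACTGAAA), the κB match and the 2 boxes of the pair, in H2-K1 and H2-D1 with 2 overlapping κB matches.
H2-K1, chr17:34000298-34000597, minus strand: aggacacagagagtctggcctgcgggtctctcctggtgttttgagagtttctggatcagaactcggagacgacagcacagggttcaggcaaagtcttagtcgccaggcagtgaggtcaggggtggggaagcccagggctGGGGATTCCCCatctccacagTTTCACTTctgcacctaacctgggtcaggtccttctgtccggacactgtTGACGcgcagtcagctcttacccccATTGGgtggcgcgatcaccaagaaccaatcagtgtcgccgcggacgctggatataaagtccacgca
H2-D1, chr17:35262844-35263143, plus strand: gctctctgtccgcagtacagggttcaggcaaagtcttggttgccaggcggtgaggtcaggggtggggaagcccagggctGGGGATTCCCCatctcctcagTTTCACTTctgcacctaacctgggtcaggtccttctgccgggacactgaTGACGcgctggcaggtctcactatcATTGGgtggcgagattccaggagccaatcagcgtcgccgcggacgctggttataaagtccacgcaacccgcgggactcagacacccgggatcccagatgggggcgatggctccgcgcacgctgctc
B2m, chr2:122147437-122147736, plus strand: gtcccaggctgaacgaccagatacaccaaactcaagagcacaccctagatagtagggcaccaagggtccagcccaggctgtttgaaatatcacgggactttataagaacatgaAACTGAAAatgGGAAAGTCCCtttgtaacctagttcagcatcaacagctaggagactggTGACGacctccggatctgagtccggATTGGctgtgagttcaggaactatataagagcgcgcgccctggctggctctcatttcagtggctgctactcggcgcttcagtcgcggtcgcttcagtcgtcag
The interferon motif of H2-K1 started 90 bases before the start site, that of B2m 137 bases and that of H2-D1 150 bases before it. A match describes letters and does not show that a factor binds there.

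In exon length-corrected levels, B2m stood first in every group, at 321 ± 110 CPM per kb in Ctrl (mean ± SD, n = 7), 322 ± 183 in LS (n = 4) and 371 ± 147 in AL mice (n = 9). H2-K1 (69.6 ± 16.7) and H2-D1 (63.2 ± 13.2 CPM per kb in Ctrl) followed, and did not differ from each other beyond their spread. Psmb10 (16.8 ± 4.06) and Tapbp (15.3 ± 2.01) formed the next level, also within their spread, and Tap2 was at 6.77 ± 1.67 CPM per kb. Psmb8 (3.43 ± 0.983), Tap1 (2.32 ± 1.16), Nlrc5 (1.52 ± 0.627) and Psmb9 (1.48 ± 0.596) were lowest in Ctrl mice, with Nlrc5 and Psmb9 not distinguishable. The transporter subunits, which work as a dimer, were unequal in Ctrl mice on this scale and in CPM (12.7 ± 6.37 for Tap1, 25.6 ± 6.31 for Tap2). Of the catalytic proteasome subunits, the constitutive Psmb5 (36.9 ± 13.05), Psmb6 (36.8 ± 5.82) and Psmb7 (28.9 ± 5.25 CPM per kb in Ctrl) were above their immune counterparts Psmb8, Psmb9 and Psmb10 in each of the 3 groups. On this scale Psmb10 was the immune subunit closest to its counterpart. Without the length correction, Ctrl means were 28.7 CPM for Psmb10 against 98.9 for Psmb7, and 11.6 for Psmb8 against 33.2 for Psmb5.

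In AL against LS mice, all 10 members had a positive log2FC, and H2-D1 and Psmb8 were called higher. The median log2FC of the members was 0.43, against 0.011 over all 14477 genes, of which 51.4% were positive. The 2 called members compare with 5.86% of all genes called higher, and 8.90% called in either direction. Tapbp, at 0.28, passed the FDR at a smaller change, and 9.78% of all genes were higher past the FDR. The bulk measurement cannot tell fewer cells of a type from less RNA per cell. In LS against Ctrl mice all 10 had a negative log2FC, with a median of -0.51 against 0.00032 over all genes (49.9% negative), and 0 were called by edgeR, while 4 (Nlrc5, H2-D1, H2-K1 and Psmb8) had an unadjusted p under 0.05. Here 0.0207% of all genes were called, and 5.94% had an unadjusted p under 0.05. In AL against Ctrl mice 5 members were higher and 5 lower, the median was 0.044 against 0.013, and 0 members were called by edgeR, with 2 at an unadjusted p under 0.05 (7.81% of all genes called, 38.8% at an unadjusted p under 0.05). These comparisons share mice, so that low LS values enter both AL against LS and LS against Ctrl.

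**Figure D1:**
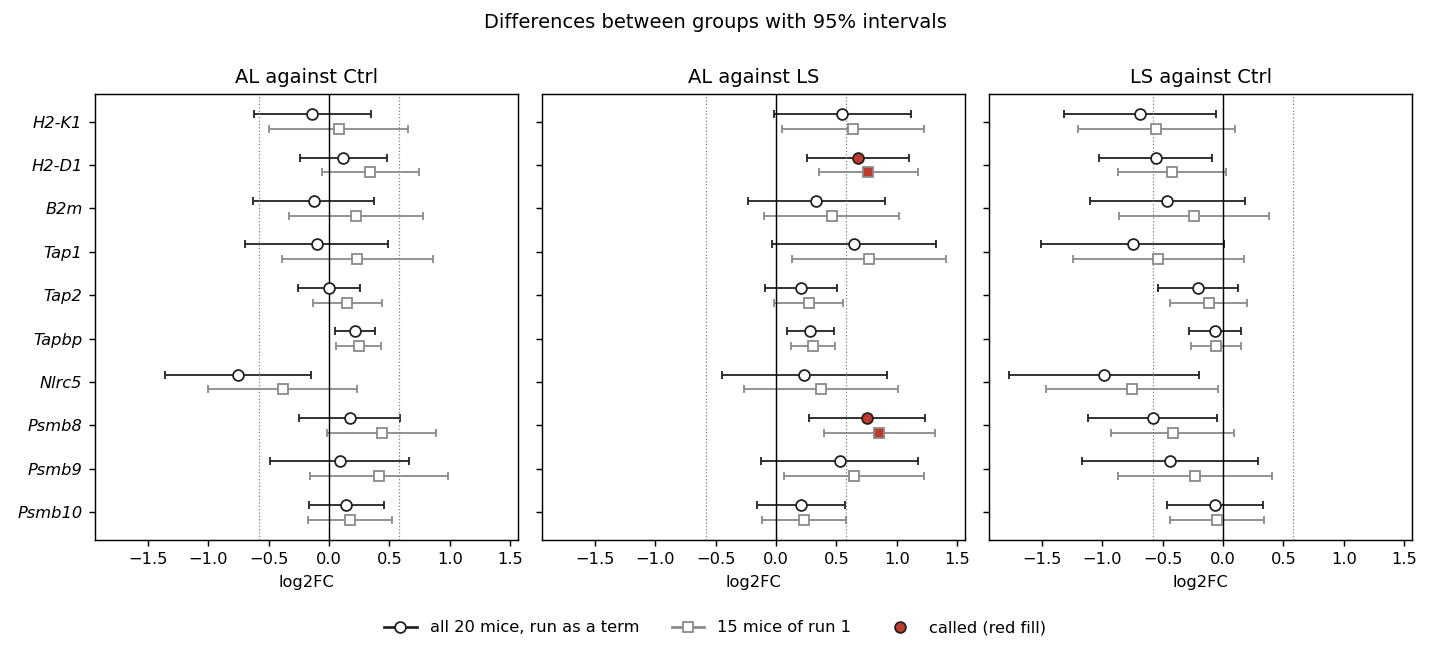
The log2FC of each member (points) with its 95% interval (bars) for the 3 comparisons of AL, LS and Ctrl mice, from all 20 mice with run as a term (circles) and from the 15 mice of run 1 (squares); dotted lines mark 0.58 and red fill marks called genes. H2-D1 and Psmb8 are called in AL against LS in both fits, and every point of LS against Ctrl lies below 0.

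H2-D1, 1 of the 2 classical heavy chains of the b haplotype, was at 103, 174, 102 and 96.1 CPM in LS1 to LS4. In AL mice it ranged from 106 to 237 CPM with a median of 194, and in Ctrl mice from 112 to 219 CPM with a median of 154. Thus 3 of the 4 LS mice lay below every AL and every Ctrl mouse, whereas LS2 lay among them, and all 9 AL mice were above the LS median. The difference was 1.60-fold (log2FC 0.68, SE 0.203, 95% interval 0.26 to 1.10, FDR = 0.0217) for AL against LS. For LS against Ctrl the log2FC was -0.56 (SE 0.223, FDR = 0.794), and for AL against Ctrl it was 0.12, with an interval of -0.24 to 0.48 (FDR = 0.649). The AL against LS call was lost without LS1 (log2FC 0.60, FDR = 0.0736), without LS3 (0.61, FDR = 0.0732), without LS4 (0.58, FDR = 0.0836), with ComBat-seq adjusted counts (0.62, FDR = 0.125), with the liver markers as a covariate (0.51, FDR = 0.109) and without the 5 mice of high Alb (0.54, FDR = 0.189), which left 2 LS mice.

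H2-K1, the other classical heavy chain, was at 94.1, 217, 118 and 74.2 CPM in LS1 to LS4, at 112 to 300 CPM (median 168) in AL and at 148 to 259 CPM (median 186) in Ctrl mice. Again LS2 was the one LS mouse above the Ctrl median. Its log2FC was 0.55 (SE 0.271, FDR = 0.148) for AL against LS, -0.69 (SE 0.300, FDR = 0.817) for LS against Ctrl and -0.14 (interval -0.62 to 0.34, FDR = 0.699) for AL against Ctrl. B2m, the light chain that every class I molecule shares, was at 178, 507, 252 and 171 CPM in LS1 to LS4, so that LS2 had the highest B2m level of all 20 mice while LS4 lay below every Ctrl mouse. AL mice had 102 to 439 CPM (median 393) and Ctrl mice 177 to 463 CPM (median 231). Here and for the other members, AL and Ctrl medians pool both runs. By run, the B2m medians of AL and Ctrl mice were 394 and 303 CPM in run 1, and 112 and 225 CPM in run 2. The log2FC of B2m was 0.33 (SE 0.271, FDR = 0.390) for AL against LS and -0.13 (interval -0.63 to 0.37, FDR = 0.733) for AL against Ctrl, and none of the 3 comparisons called it.

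Psmb8, the immune counterpart of Psmb5, was at 7.21, 10.4, 8.25 and 6.22 CPM in LS1 to LS4. In AL mice it ranged from 9.04 to 21.4 CPM with a median of 13.5, and in Ctrl mice from 7.63 to 16.3 CPM with a median of 10.8. All 7 AL mice of run 1 lay above all 4 LS mice, and the 2 AL mice of run 2, at 9.25 and 9.04 CPM, lay between LS3 and LS2. The difference between AL and LS was 1.69-fold (log2FC 0.75, SE 0.230, interval 0.27 to 1.24, FDR = 0.0240), and it fell short of the FDR without LS1 (log2FC 0.69, FDR = 0.0719), LS3 (0.77, FDR = 0.0551) or LS4 (0.64, FDR = 0.0903), with ComBat-seq (0.71, FDR = 0.0865), with the liver covariate (0.58, FDR = 0.129) and without the mice of high Alb (0.74, FDR = 0.138). Its log2FC was 0.17 (interval -0.24 to 0.59, FDR = 0.558) for AL against Ctrl and -0.58 (SE 0.255, FDR = 0.817) for LS against Ctrl.

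Psmb9, the immune counterpart of Psmb6, was at 2.39 to 6.14 CPM in LS, 2.67 to 8.77 CPM in AL and 2.85 to 9.30 CPM in Ctrl mice, and the groups overlapped throughout. Its log2FC was 0.53 (SE 0.311, FDR = 0.228) for AL against LS and 0.089 (SE 0.275, FDR = 0.846) for AL against Ctrl. Psmb10, the immune counterpart of Psmb7 and the most abundant of the 3, was at 20.8 to 38.1 CPM in LS, 23.5 to 41.4 CPM in AL and 19.4 to 39.1 CPM in Ctrl mice. Its log2FC was 0.21 (interval -0.16 to 0.57, FDR = 0.410) for AL against LS and 0.14 (interval -0.17 to 0.45, FDR = 0.511) for AL against Ctrl. The constitutive counterparts had a log2FC for AL against LS of 0.18 (Psmb5, FDR = 0.535), 0.030 (Psmb6, FDR = 0.845) and -0.17 (Psmb7, FDR = 0.233), none of them called.

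Tap1 was at 4.56, 11.7, 5.66 and 4.10 CPM in LS1 to LS4, at 7.04 to 16.9 CPM (median 9.69) in AL and at 5.78 to 24.3 CPM (median 9.68) in Ctrl mice. All 9 AL mice were above the LS median, and the log2FC of 0.65 carried an SE of 0.324 (FDR = 0.155). Tap2, its partner in the transporter, varied less: 17.2 to 24.4 CPM in LS, 18.7 to 28.8 in AL and 18.7 to 35.9 in Ctrl mice, with a log2FC of 0.21 (FDR = 0.305) for AL against LS and of -0.0010 (interval -0.26 to 0.26, FDR = 0.997) for AL against Ctrl. Tapbp was at 49.0 to 60.0 CPM in LS, 53.8 to 74.1 CPM in AL and 47.2 to 67.0 CPM in Ctrl mice. It was 1.16-fold higher in AL than in Ctrl (log2FC 0.22, SE 0.0792, FDR = 0.0483; 10.7% of all genes were higher past the FDR) and 1.22-fold higher than in LS mice (log2FC 0.28, SE 0.0938, FDR = 0.0347). It was the one member past the FDR in both comparisons with AL mice, and in neither did it reach 0.58. Its FDR rose to 0.145 (against Ctrl) without Ctrl4, to 0.133 (against LS) without LS4, and to 0.497 and 0.518 with ComBat-seq adjusted counts.

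Nlrc5, the activator of class I transcription, had the lowest log2FC of the 10 in AL against Ctrl. It was at 3.36 to 11.4 CPM (median 6.96) in AL mice and at 6.25 to 23.1 CPM (median 11.96) in Ctrl mice, and at 3.496, 10.6, 5.34 and 3.68 CPM in LS1 to LS4. None of the 9 AL mice reached the Ctrl median of both runs, and 3 lay below every Ctrl mouse. Within run 1, 1 of the 7 AL mice lay above the Ctrl median and 2 lay below every Ctrl mouse. The log2FC was -0.75 (SE 0.291, interval -1.36 to -0.15, unadjusted p = 0.0177, FDR = 0.0621) for AL against Ctrl, -0.99 (SE 0.377, unadjusted p = 0.0166, FDR = 0.785) for LS against Ctrl and 0.24 (SE 0.328, FDR = 0.640) for AL against LS. The AL against Ctrl difference passed with DESeq2 (-0.76, adjusted p = 0.0222), without the run term (-0.87, FDR = 0.0361), with the liver covariate (-1.31, FDR = 0.0136) and without AL4 (-0.87, FDR = 0.0325), LS2 (-0.76, FDR = 0.0351) or Ctrl4 (-0.93, FDR = 0.0331), and shrank to -0.38 (FDR = 0.348) in run 1 alone and to -0.53 (FDR = 0.157) without AL9. Without the 5 mice of high Alb it was -1.24 (FDR = 0.0578). Nlrc5 rested on 62 counts in AL8 and 39 in AL9, and the lowest count of any member was 31, for Psmb9 in AL9.

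**Figure D2:**
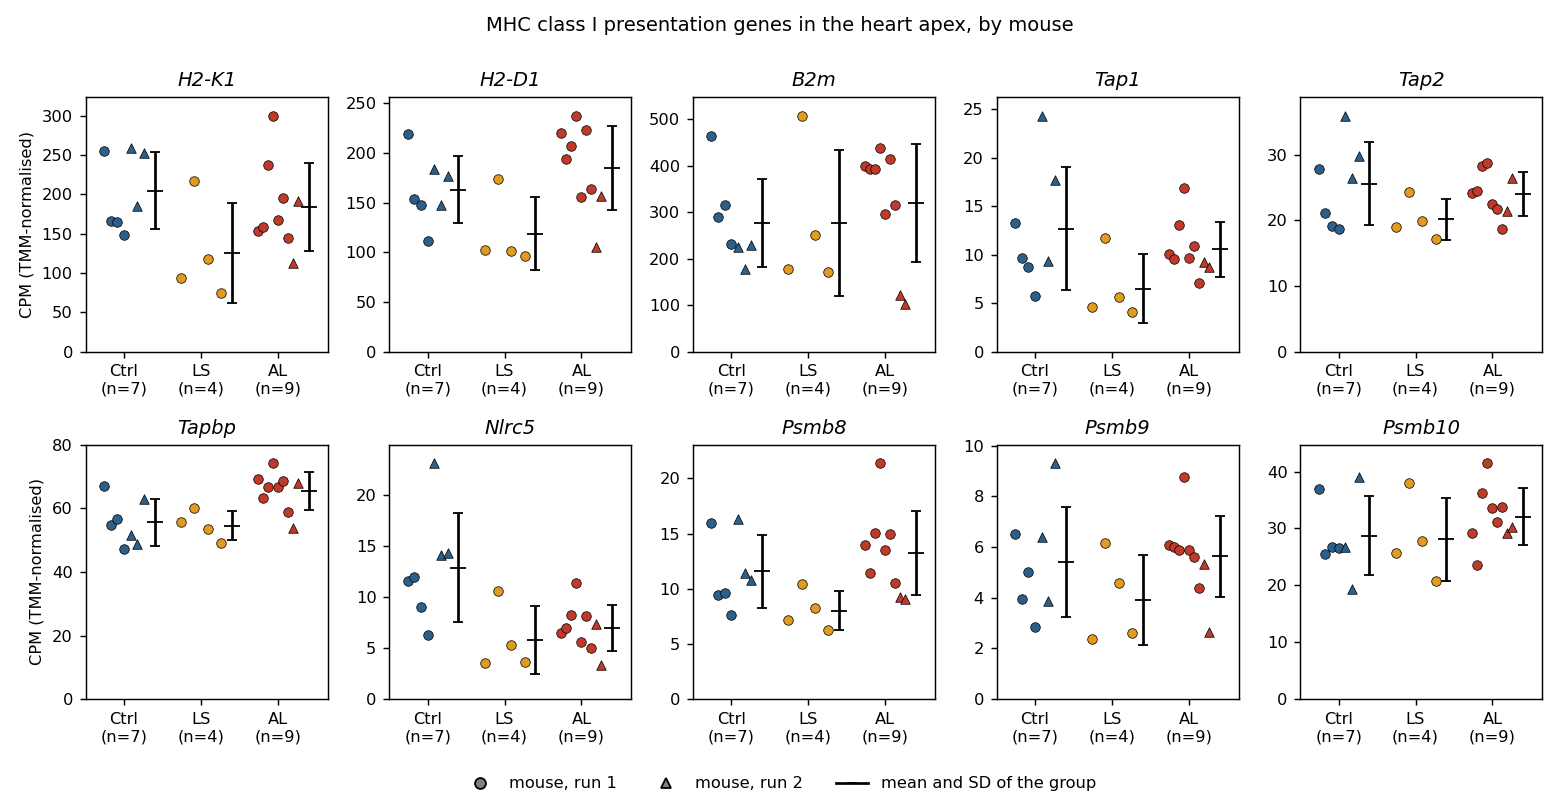
TMM-scaled CPM of each member (y axis, linear from 0) in each mouse by group, with circles for run 1 and triangles for run 2, and the group mean and SD as bars. LS2 is the highest LS mouse in all 10 panels, and the 2 AL mice of run 2 are the lowest AL mice for B2m and Psmb8.

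Taken run by run, AL against Ctrl ran in different directions. In run 1, 9 of the 10 members had a positive log2FC with a median of 0.23 (0.012 over all genes, 51.7% positive), and 0 were called (7.82% of all genes called); Tapbp passed the FDR at 0.24 (FDR = 0.0481; 25.6% of all genes past it in either direction), Psmb8 was at 0.44 (SE 0.212, FDR = 0.141) and Nlrc5 at -0.38 (SE 0.291, FDR = 0.348). In run 2, 8 of the 10 were negative with a median of -0.50 (0.036 over all genes, 46.5% negative), and 0 were called (0.128% of all genes called), with 2 at an unadjusted p under 0.05 (14.1% of all genes). B2m was at 122 and 102 CPM in AL8 and AL9 and at 225, 177 and 229 CPM in Ctrl5 to Ctrl7, a log2FC of -0.86 (SE 0.189, unadjusted p = 0.00276, FDR = 0.204). Nlrc5 was at 7.35 and 3.36 CPM against 23.1, 14.1 and 14.3 CPM, a log2FC of -1.65 (SE 0.403, unadjusted p = 0.00485, FDR = 0.234). For 5 members, B2m, Tap1, Tap2, Nlrc5 and Psmb8, both AL mice of run 2 lay below all 3 Ctrl mice, as did 19.5% of all genes, and for 0 members both lay above, as did 13.9% of all genes.

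The difference between the runs was tested as an interaction of group and run. It was negative for all 10 members, with a median of -0.82 (-0.0068 over all genes, 50.8% negative), and 6 had an unadjusted p under 0.05, as did 15.3% of all genes. None was called by edgeR (0.701% of all genes called), the lowest FDR being that of B2m (log2FC -1.14, SE 0.290, FDR = 0.0787). Run 2 held 2 AL mice, and leaving out AL8 changed these calls. Without AL8, B2m was called in run 2 (log2FC -0.99, FDR = 0.0380) and in the interaction (-1.27, FDR = 0.0305), as was Nlrc5 (-2.30, FDR = 0.0209, and -1.97, FDR = 0.0338), with AL9 alone assumed to vary like the other mice. Without Ctrl1, B2m was called in the interaction (-1.36, FDR = 0.0166). Other gene groups were also lower in AL8 and AL9 than in the 3 Ctrl mice of that run: MHC class II genes summed to 91.7 and 93.2 CPM against 259 to 306 CPM, interferon response genes to 485 and 419 against 634 to 863 CPM, and endothelial markers (6 genes) to 380 and 504 against 596 to 609 CPM. Macrophage markers (7 genes) summed to 151 and 568 against 186 to 251 CPM and fibroblast markers (4 genes) to 247 and 1159 against 363 to 594 CPM, so that AL8 lay below and AL9 above the Ctrl mice. Mitochondrial genes held 18.3% of counts in AL9, the lowest share of the 20 mice, and 26.4% in AL8. Their part in the result was not tested.

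For AL against LS, run 1 holds all LS mice and gives the comparison within a run. All 10 members were again positive, with a median log2FC of 0.55 (0.016 over all genes, 52% positive), and H2-D1 and Psmb8 were called (7.94% of all genes called higher, 11.5% in either direction). H2-D1 was at 0.76 (SE 0.193, FDR = 0.00858), Psmb8 at 0.85 (SE 0.216, FDR = 0.00879) and Tapbp at 0.30 (SE 0.0859, FDR = 0.0158; 15.6% of all genes higher past the FDR). Within this run both calls held without any 1 of the 11 AL and LS mice or the 4 Ctrl mice, at FDR values of 0.00346 to 0.0327 for H2-D1 and 0.00428 to 0.0334 for Psmb8. Without LS2 the number of called members was 7. The share of all genes called in that fit is not given here, so this count cannot be set against all genes. Psmb8 was the 1 member of 10 with every AL mouse above every LS mouse, as 9.06% of all genes were. Of 6 cardiomyocyte markers, all had a negative log2FC here (48% of all genes), with a median of -0.16. Of them, 2 passed the FDR and 0 were called (11.5% of all genes called in either direction). Their sum, in which Myh6 weighs most, was 39728 to 49857 CPM in the AL mice of run 1 and 51983 to 57901 CPM in LS mice, without overlap. The shares of all genes lower past the FDR, or without overlap in this direction, are not given here. Liver markers (8 genes) summed to 1.01 to 33.0 CPM against 5.97 to 164 CPM. Their part in the result was not tested. LS against Ctrl within run 1 was negative for all 10 members, with a median of -0.33 (-0.0071 over all genes, 51.7% negative), and 0 were called (0.0210% of all genes called; 1 member, Nlrc5, and 8.21% of all genes at an unadjusted p under 0.05).

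**Figure D3:**
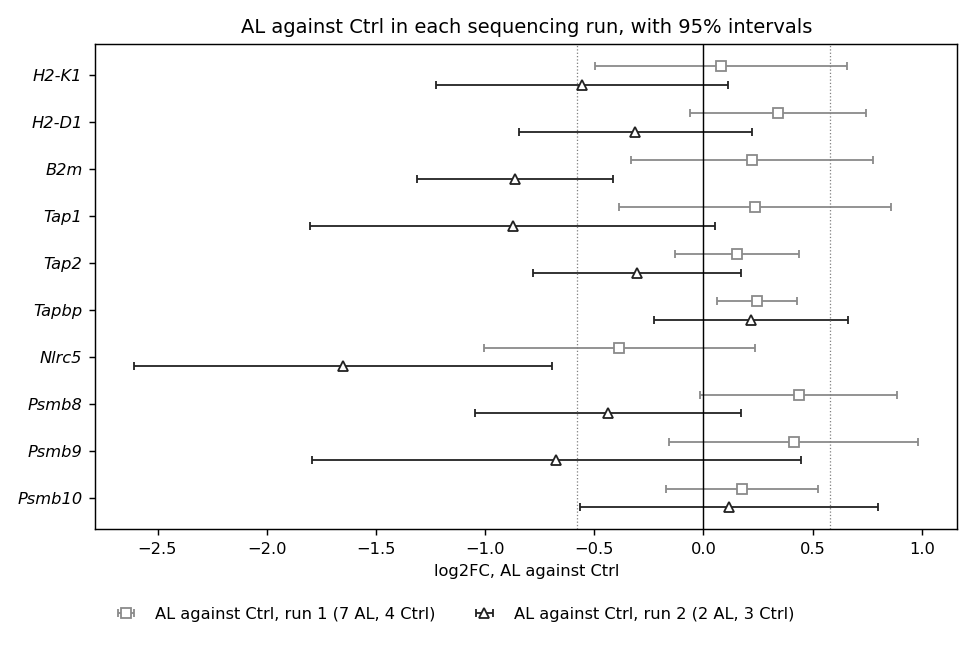
AL against Ctrl log2FC of each member with 95% interval, fitted in run 1 (7 AL and 4 Ctrl mice) and in run 2 (2 AL and 3 Ctrl mice). In run 1 every member but Nlrc5 lies above 0, and in run 2 every member but Tapbp and Psmb10 lies below 0.

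In most groups and runs the 10 genes ordered the mice alike. LS2 was the highest LS mouse for 10 of 10 members, and AL4 the highest AL mouse of run 1 for 10 of 10. Ctrl1 was the highest Ctrl mouse of run 1 for 9 members and Ctrl4 the lowest for 9, LS4 was the lowest LS mouse for 8, AL7 the lowest AL mouse of run 1 for 7 and Ctrl6 the lowest Ctrl mouse of run 2 for 9. The 2 AL mice of run 2 had no such order, AL8 being the higher for 5 members and AL9 for 5. Expressed as the mean of the 10 log2 ratios to the Ctrl mean of the same run, LS1, LS3 and LS4 stood at -0.69, -0.39 and -0.82, and LS2 at 0.25. AL mice of run 1 stood between -0.17 and 0.61, AL8 and AL9 at -0.59 and -0.64, and Ctrl mice of run 1 between -0.44 and 0.43. Ctrl mice alone therefore covered much of the range of the AL mice of run 1. Over the 10 members the ratio of highest to lowest mouse had a median of 2.20 in LS, 1.88 in AL of run 1 and 1.94 in Ctrl of run 1, and reached 3.04 for Nlrc5 in LS mice.

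**Figure D4:**
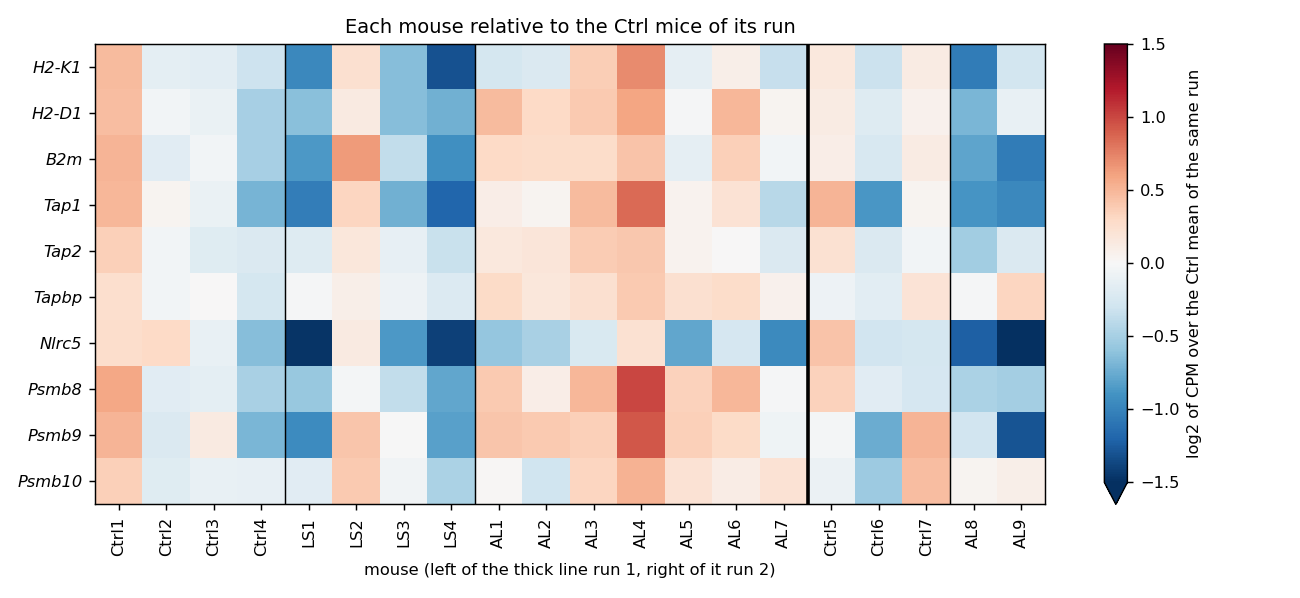
Log2 ratio of each member (rows) to the Ctrl mean of the same run in each of the 20 mice (columns, by group and run). Columns are of 1 colour from top to bottom in LS1, LS3, LS4, Ctrl4 and Ctrl6, which are low, and in AL4 and Ctrl1, which are high.

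After group and run means were removed, all 45 pairs of members correlated positively over the 20 mice, with a median Pearson r of 0.74 and a range of 0.33 to 0.89. Within the 15 mice of run 1 the median was 0.84 (0.62 to 0.96). The points share library and depth, and some pairs share sequence or overlap, so these values are a description. Ranked by correlation with the mean standardised level of the 10 members over the 20 mice, after the same removal, the nearest of 12211 genes included Irgm1 (r = 0.94, rho = 0.90), Parp10 (0.91), the non-classical class I gene H2-T22 (0.90), Ifi27 (0.89) and Apol9a (0.88). Without LS2 and AL4, the 2 mice farthest out, r was 0.92, 0.91, 0.85, 0.86 and 0.85 in the same order. Irgm1 encodes an interferon-induced GTPase, and Ifi27 a product of interferon-stimulated cells. Irgm1 was at 47.7 CPM in LS2 and at 20.1, 23.8 and 18.1 CPM in LS1, LS3 and LS4, at 45.5 CPM in Ctrl1 and 20.3 CPM in Ctrl4, and at 19.4 and 15.9 CPM in AL8 and AL9. A second Irgm1 entry, not used for these values, held 26 counts in AL8.

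**Figure D5:**
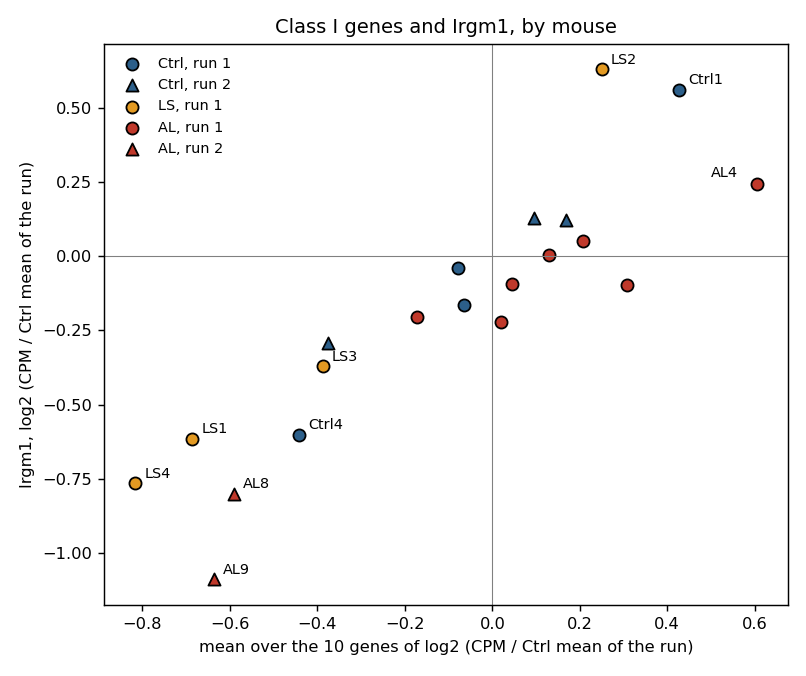
Mean of the 10 members' log2 ratios to the Ctrl mean of the same run (x axis) and the log2 ratio of Irgm1 (y axis), 1 point per mouse, coloured by group, with circles for run 1 and triangles for run 2. LS2, Ctrl1 and AL4 lie at the upper right, and LS1, LS4, AL8 and AL9 at the lower left.

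Of 25 interferon response genes outside the 10, 7 were called higher and 2 lower in AL against Ctrl (7.81% of all genes called in either direction). In AL against LS, 13 were called higher and 0 lower (5.86% of all genes called higher). Irf7, the factor that amplifies type I interferon, had a log2FC of 1.44 (FDR = 0.0152) against Ctrl and 2.45 (FDR = 0.00165) against LS. Isg15, a ubiquitin-like protein, was at 0.91 (FDR = 0.0430) and 1.72 (FDR = 0.00328), and Ifit3, an interferon-induced antiviral protein, at 1.18 (FDR = 0.0349) and 2.03 (FDR = 0.00353). Oasl2 was at 0.85 (FDR = 0.0171) and 1.42 (FDR = 0.00224), Xaf1 at 1.20 (FDR = 0.0202) and 1.83 (FDR = 0.00481), and Bst2 at 0.69 (FDR = 0.0530) and 1.29 (FDR = 0.00426). The 2 called lower against Ctrl were Igtp (-1.09, FDR = 0.0412) and Iigp1 (-0.93, FDR = 0.0260), GTPases of the same family as Irgm1, named here after their values were seen; against LS they were at -0.33 (FDR = 0.615) and -0.41 (FDR = 0.399). The runs differed for this list too. In run 1, 14 were called higher and 0 lower in AL against Ctrl (7.82% of all genes called), with a median log2FC of 1.09. In run 2, by contrast, 19 of 24 were negative, with a median of -0.62. There 0 were called by edgeR (0.128% of all genes called), with 9 at an unadjusted p under 0.05 (14.1% of all genes). The interaction was negative for 25 of 25, with 17 at an unadjusted p under 0.05 (15.3% of all genes). Ifit3 was the 1 called (-2.43, FDR = 0.0323), with 0.701% of all genes called. In LS against Ctrl, 23 of the 25 were negative and 0 were called by edgeR, with 2 at an unadjusted p under 0.05 (5.94% of all genes).

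Of 23 entries tested for regulators of class I transcription and interferon receptors, 0 were called in AL against Ctrl by edgeR, with 9 at an unadjusted p under 0.05 (38.8% of all genes). Past the FDR 4 were higher (Ifnar2 0.35, Ifnar1 0.27, Rela 0.27 and Rfxap 0.26), as were 10.7% of all genes. Jak1, at -0.32, was the 1 past the FDR and lower, and the share of all genes lower past it is not given here. In AL against LS 2 entries were called higher. Over all genes, 5.86% were called higher in AL against LS. The 2 entries were Stat2 (0.92, FDR = 0.00457), which carries the type I interferon signal, and 1 of 2 entries of Nfya (3.53, FDR = 0.0187). The other Nfya entry was at -1.39 (FDR = 0.219). Mean levels in AL and LS mice were 7.68 and 0.849 CPM for the called entry, and 6.57 and 14.45 CPM for the other. Since the entries moved in opposite directions, this call does not show a rise of Nfya as a whole, which was not tested. Irf1, which binds the interferon motif of class I promoters, was at 0.13 (FDR = 0.314) against Ctrl and 0.30 (FDR = 0.0570) against LS. Rfx5, the DNA-binding partner of Nlrc5, was at 0.21 (FDR = 0.258) against Ctrl and -0.035 (FDR = 0.897) against LS.

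Of 13 non-classical class I chains tested, 4 were called higher and 0 lower in AL against LS (5.86% of all genes called higher). H2-Q6 was at 1.59 (FDR = 0.0273), H2-Q4 at 0.77 (FDR = 0.0274), and H2-T23, which carries leader peptides of other class I chains to natural killer cells, at 0.74 (FDR = 0.0295). H2-M2 was at 3.91 (FDR = 0.0328) on 0 to 33 counts per AL mouse and 0 to 2 per LS mouse. In AL against Ctrl these 4 were not called, and H2-Q10, a class I chain made by the liver, was lower (-2.52, FDR = 0.00912). H2-Q10 was at 7.86, 6.88 and 4.31 CPM in Ctrl1, Ctrl3 and Ctrl4 and at 2.95 and 2.89 CPM in LS1 and LS3, the 5 mice of high Alb, and at no more than 1.97 CPM in the other mice. H2-Q10 is among the genes that share transcript words with H2-K1.

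Peptide trimming and loading genes outside the members were not called in either comparison with AL mice (9 tested), and 4 were past the FDR and lower in each. Against Ctrl 4 had an unadjusted p under 0.05 (38.8% of all genes), and against LS 5 did. The shares of all genes lower past the FDR, and under that p against LS, are not given here. Those counts therefore cannot be set against all genes. Tpp2, which trims peptides in the cytosol, was at -0.51 against Ctrl (FDR = 0.000353) and -0.52 against LS (FDR = 0.000929), and Erap1, which trims them in the endoplasmic reticulum, at -0.52 (FDR = 0.000383) and -0.47 (FDR = 0.00220). Of 19 constitutive proteasome and activator genes, 0 were called by edgeR in either comparison. Against Ctrl 3 had an unadjusted p under 0.05 (38.8% of all genes), and 1 did against LS. Psmb5 was at 0.38 (FDR = 0.104), Psmb6 at 0.15 (FDR = 0.168) and Psmb7 at -0.050 (FDR = 0.720) against Ctrl. Among MHC class II genes, H2-Aa was called lower in AL against Ctrl (-0.75, FDR = 0.0461), 1 of 8 tested, with 7.81% of all genes called in either direction. In run 1, 0 were called by edgeR or had an unadjusted p under 0.05, with 4 positive, 4 negative and a median of -0.028, whereas in run 2 all 6 tested were negative, with a median of -1.48, and H2-Aa (-1.72), H2-Eb1 (-1.69) and Cd74 (-1.44) were called lower (0.128% of all genes called). In all mice 0 were called in AL against LS by edgeR, with 1 at an unadjusted p under 0.05. H2-Ea, silent in the b haplotype, had 0 counts in all mice but LS2, which had 5.

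Of 5 receptor genes tested, class I receptors and a relative of Pirb, 1 was called higher in AL against Ctrl and 2 in AL against LS. Over all genes, 7.81% were called in either direction against Ctrl and 5.86% were called higher against LS. Pirb, an inhibitory class I receptor of myeloid cells, was at 1.03 (FDR = 0.00610) and 1.19 (FDR = 0.0108), and Lilrb4a, a relative of Pirb not known as a class I receptor, at 0.97 (FDR = 0.0161) against LS. Pirb ran from 6.28 to 20.5 CPM in AL mice of both runs against 3.79 to 4.26 CPM in LS mice, with no overlap. Within run 1, 9.06% of all genes had every AL mouse above every LS mouse. Cd8a, the coreceptor of class I, was between 0 and 0.628 CPM in the 20 mice and was not called (-0.86, FDR = 0.289 against Ctrl). Markers of other cells that carry class I moved with some of these results. Of 7 macrophage markers, 1 was called higher in each comparison (Lyz2 at 0.61, FDR = 0.0340, against Ctrl; Ptprc at 0.68, FDR = 0.00338, against LS), and 2 of 7 had a negative log2FC in both, Cd163 at -0.70 (FDR = 0.174) and -0.79 (FDR = 0.200) and Csf1r at -0.15 (FDR = 0.621) and -0.35 (FDR = 0.309). In run 1 against LS, 4 of the 7 macrophage markers passed the FDR and were higher, 1 of them called (15.6% of all genes higher past the FDR). Csf1r passed it and was lower, at -0.43 (FDR = 0.0265). The macrophage sum was 151 to 568 CPM in AL, 269 to 324 CPM in LS and 186 to 381 CPM in Ctrl mice, with none of the 7 at 0 in any mouse. Of 6 endothelial markers 0 were called by edgeR in either comparison. Against Ctrl 1 had an unadjusted p under 0.05 (38.8% of all genes), and against LS 2 did, where that share is not given here. Their sums were 380 to 653, 405 to 493 and 448 to 609 CPM in AL, LS and Ctrl mice. In run 1 against LS all 6 were positive, with 2 past the FDR and 0 called. In the interaction of group and run, 1 was called lower (0.701% of all genes called). T and NK cell markers (8 genes) summed to 1.48 to 4.41 CPM over all mice, with Cd8a, Klrb1c, Ncr1 and Nkg7 each at 0 in some mice, and 1 of 8 was called, Trac, higher in AL against Ctrl (1.18, FDR = 0.0463), where 4 of the 8 were positive and 4 negative, with a median of -0.043. Of 4 dendritic cell markers, Xcr1 was called higher in AL against LS (1.63, FDR = 0.0487), and of 3 B cell and 4 fibroblast markers 0 were called in either comparison (0 and 1 at an unadjusted p under 0.05 against LS). In run 1 against LS, 2 dendritic cell markers, 1 fibroblast marker and 0 B cell markers were called higher (7.94% of all genes called higher). The part of these cells in the values of the 10 members was not tested.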

How the data were processed

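Heart apex RNA of 20 mice (9 AL, 4 LS, 7 Ctrl) was sequenced by the authors from stranded polyA libraries in 2 runs, aligned to GRCm38 with STAR and quantified with Salmon. The deposited values are estimated counts per gene, not scaled for depth, length or run; 14.2% were not whole and all were rounded before testing. The tools and the build come from the study's methods and the submitters' processing notes, and STAR and Salmon versions are not given in the sources used here. Groups came from the sample labels.

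Counts were fitted with edgeR 4.0.16 (R 4.3.3; quasi-likelihood test, TMM scaling, filterByExpr with a minimum count of 10) with group and sequencing run as terms, and p-values were adjusted by Benjamini-Hochberg over all genes tested. A call needed an FDR under 0.05 together with a log2FC of 0.58 or more in size. CPM values come from the same scaling. Alternatives used DESeq2 1.42.0, ComBat-seq (sva 3.50.0), other filters, scalings and covariates, each run alone and leaving out each mouse. The fit was also run on simulated counts, drawn without a shift common to a run. Its outcome is not given here and is not used as support. Gene positions are from GENCODE M21 (24575 of 25308 genes matched) and promoters from RefSeq.

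The members and lists were chosen with earlier results of these data known. Named genes were the 10 members, up to 6 called genes per list by lowest FDR, fixed counterparts (Psmb5, Psmb6, Psmb7, Irf1, Rfx5, H2-Q10, H2-Ea, Cd8a) and the 6 genes most correlated with the members at a mean of at least 1 CPM, except 1 gene that is not reported here. Total counts ran from 7867642 to 62668146, so the mice of run 2 carry larger counting errors. No 2 libraries were identical, and p-values set a difference against the spread between these mice, as estimated in each fit.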

Additional observations from a re-analysis of the deposited data

Results flagged for a closer look

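In 30 sets of 1 member in 1 group, 2 mice stood farther from the rest of their group than Dixon's 95% critical value allows, where chance gives about 1 in 20. H2-D1 in LS2 was at 174 CPM, with the nearest LS mouse at 103 CPM, a gap of 0.915 of the range. Psmb8 in AL4 was at 21.4 CPM, with the nearest AL mouse at 15.045 CPM, a gap of 0.512 of the range. LS2 and AL4 were the highest mice of their group and run for all 10 members.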

How the results depend on the processing

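For AL against LS the number of called members fell from 2 to 0 with ComBat-seq adjusted counts, with the liver markers as a covariate and, in an alternative added after the data were seen, without the 5 mice with Alb above 90 CPM; leaving out single mice gave 0 (without LS1, LS3 or LS4) to 5 (without LS2), and 2 to 7 within run 1. For AL against Ctrl it rose from 0 to 1 (Nlrc5, lower) with DESeq2, without the run term and with the liver covariate, and leaving out single mice gave 0 to 1 (1 without AL4, LS2 or Ctrl4); it gave 0 to 1 in run 1 (Psmb8 without Ctrl1), 0 to 2 in run 2 and 0 to 2 for the difference between runs. LS against Ctrl stayed at 0 in every setting run. For the fits without single mice, the shares of all genes called are not given here, so these counts cannot be set against all genes. The causes were not tested.

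Single AL against Ctrl log2FC values near 0 changed sign. Tap2 became 0.011 with at least 10 counts in every mouse, 0.0089 with RLE size factors, 0.0088 with DESeq2, 0.031 with ComBat-seq, 0.0027 with only the groups compared, 0.15 in run 1 and 0.073 with Xist as a covariate. B2m became 0.21 without the run term and 0.22 in run 1. In run 1 H2-K1 was 0.080 and Tap1 0.24, and with Xist as a covariate 0.00077 and 0.052. In run 2 H2-D1 was -0.31, Psmb8 -0.44 and Psmb9 -0.67. With the liver covariate H2-D1 was -0.11, Psmb8 -0.057 and Psmb9 -0.33, and without the mice of high Alb H2-D1 was -0.040 and Psmb9 -0.13. For AL against LS, Nlrc5 became -0.16 with the liver covariate. For LS against Ctrl, B2m became 0.0053 without the run term and Psmb10 0.068 without the mice of high Alb. Of 550 single-member values outside leave-outs, 513 kept their direction and call.

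Leaving out single mice, AL against Ctrl ran from -0.24 to 0.00016 for H2-K1, -0.0053 to 0.24 for H2-D1, -0.27 to 0.030 for B2m, -0.28 to 0.042 for Tap1, -0.071 to 0.074 for Tap2 and -0.082 to 0.29 for Psmb9; in run 1, H2-K1 ran from -0.055 to 0.28, and in run 2 Psmb10 from -0.092 to 0.40. LS against Ctrl ran from -0.25 to 0.058 for Psmb10, and in run 1 from -0.22 to 0.025 for Tap2, -0.13 to 0.035 for Tapbp and -0.23 to 0.089 for Psmb10. The difference between runs ran from -0.25 to 0.074 for Tapbp and -0.29 to 0.22 for Psmb10.

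With the replicate number as a block, the members called numbered 0 for AL against Ctrl, 2 for AL against LS and 0 between LS and Ctrl, and for AL against Ctrl H2-K1 became 0.22, B2m 0.35, Tap1 0.45 and Tap2 0.30, with 851, 1228 and 3 genes called in all. Same-numbered mice shared only a number: 4 of 15 pairs correlated above 0.1 (r from -0.23 to 0.29).

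Over all genes, calls numbered 1130 for AL against Ctrl, 1288 for AL against LS and 3 between LS and Ctrl. These became 587, 878 and 3 with at least 10 counts in every mouse, 758, 637 and 6 with ComBat-seq, 502, 473 and 3 without the mice of high Alb, 1261, 1551 and 19 with DESeq2, 888, 1206 and 2 without the run term, and 16 for AL against Ctrl in run 2.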

Other observations

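Among the non-classical class I chains, 1 Ctrl mouse stood apart, chosen here after its values were seen. H2-Q7, a class I chain of the Qa-2 family, was at 0.41 CPM (20 counts) in Ctrl4 and at 13.4 to 34.5 CPM in the other Ctrl mice. LS mice had 4.95 to 13.3 CPM. H2-Q7 is among the genes that share transcript words with H2-K1 and H2-D1, so its level carries the uncertainty of divided reads. How reads were divided in Ctrl4 was not tested. Ctrl4 was also the lowest Ctrl mouse for H2-Q6 (2.85 CPM), H2-T22 (11.4 CPM), H2-T23 (11.7 CPM) and H2-Q4 (19.0 CPM). Ifnb1, the gene of interferon beta, had 0 counts in all 20 mice, and Ifng, the gene of interferon gamma, had 0 to 4 counts per mouse.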
